A study of Canis lupus familiaris with 8 samples.

Results

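Kidney tubule transport was followed in unstretched and stretched MDCK GII cells through 47 named genes of transporters, ion and water channels, endocytic receptors and their regulators. The genes were listed by name, with no threshold on a measured value but with earlier results of these data known, and all 47 were found among the 37952 genes of the count table. MDCK (Madin-Darby Canine Kidney) is an established epithelial line from dog kidney, and the GII label marks the version used. All wells held cells plated on collagen-coated silicone membranes and cultured overnight in medium with serum. The control group was 4 wells that were not strained, and the stretch group was 4 wells whose membrane was held at 18% strain, equal in both in-plane directions, for 2 hours before lysis. No genotype, drug or other agent separated the groups. The wells were technical replicates of a single line grown on flat membranes, so the spread between them is not that between animals or independent lines, and p-values measure only the spread between wells.

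The kidney tubule is built of consecutive segments with different transport genes. Proximal tubule cells take up filtered glucose, phosphate, organic anions and protein, the thick ascending limb and distal convoluted tubule reabsorb salt through cation-chloride cotransporters, and the collecting duct adjusts water, sodium, potassium and acid through principal and intercalated cells. In every segment the basolateral sodium pump sets the gradient that drives the other carriers, and kinases such as SGK1, WNK1 and STK39 adjust the carriers and channels.

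Total counts ranged from 27047358 to 32478887 per well. Of 12 general renal epithelial markers, 9 reached at least 1 TPM (counts divided by exon length and scaled to a common total per well), led by KRT8 at 2622 ± 167 TPM and including CDH1, EPCAM, PAX8 and PAX2 (mean ± SD, n = 4 control wells here and below for TPM). CDH16, the kidney cadherin, was at 0.729 ± 0.242 TPM. None of 7 fibroblast, 6 endothelial and 6 leukocyte markers reached 1 TPM, and the summed level of each of these lists stayed between 0.513 and 1.25 TPM in all 8 wells, with PTPRC, CD3E, COL1A2, COL3A1, DCN and EMCN at 0 counts. Of 5 podocyte markers, NPHS1 and WT1 had 0 counts in all wells, while PODXL and SYNPO were at 93.3 and 4.03 TPM.

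In the control wells the 47 genes fell into a set with clear expression and a set at or near 0 counts, with little between them. Of these, 20 had a mean of at least 1 TPM, 3 lay between 0.1 and 1 TPM, and 24 lay below 0.1 TPM. The 20 genes of the upper set were the sodium pump subunits ATP1B1 and FXYD2, the cotransporters SLC12A2, SLC12A4 and SLC12A7, the osmolyte carriers SLC6A6 and SLC5A3, the acid-base genes SLC4A2, SLC4A7, SLC9A2 and ATP6V1B1, the channels AQP3, KCNJ16, CLCN3, SCNN1A and SCNN1B, the receptor CUBN, and the kinases SGK1, WNK1 and STK39. In RNA from whole wells, fewer cells expressing a gene and less of its RNA per cell cannot be told apart. The 24 lowest genes never exceeded 6 counts in a well, and 10 of them had 0 counts in all 8 wells. Over the 237558216 counts of the 8 wells, a count of 0 allows up to 3 counts, or 0.0126 CPM (a count relative to its library size). For the 14 genes with 0 counts in the 4 control wells the same limit was between 0.00893 and 0.0506 TPM, which covers counting error only.

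**Figure D1:**
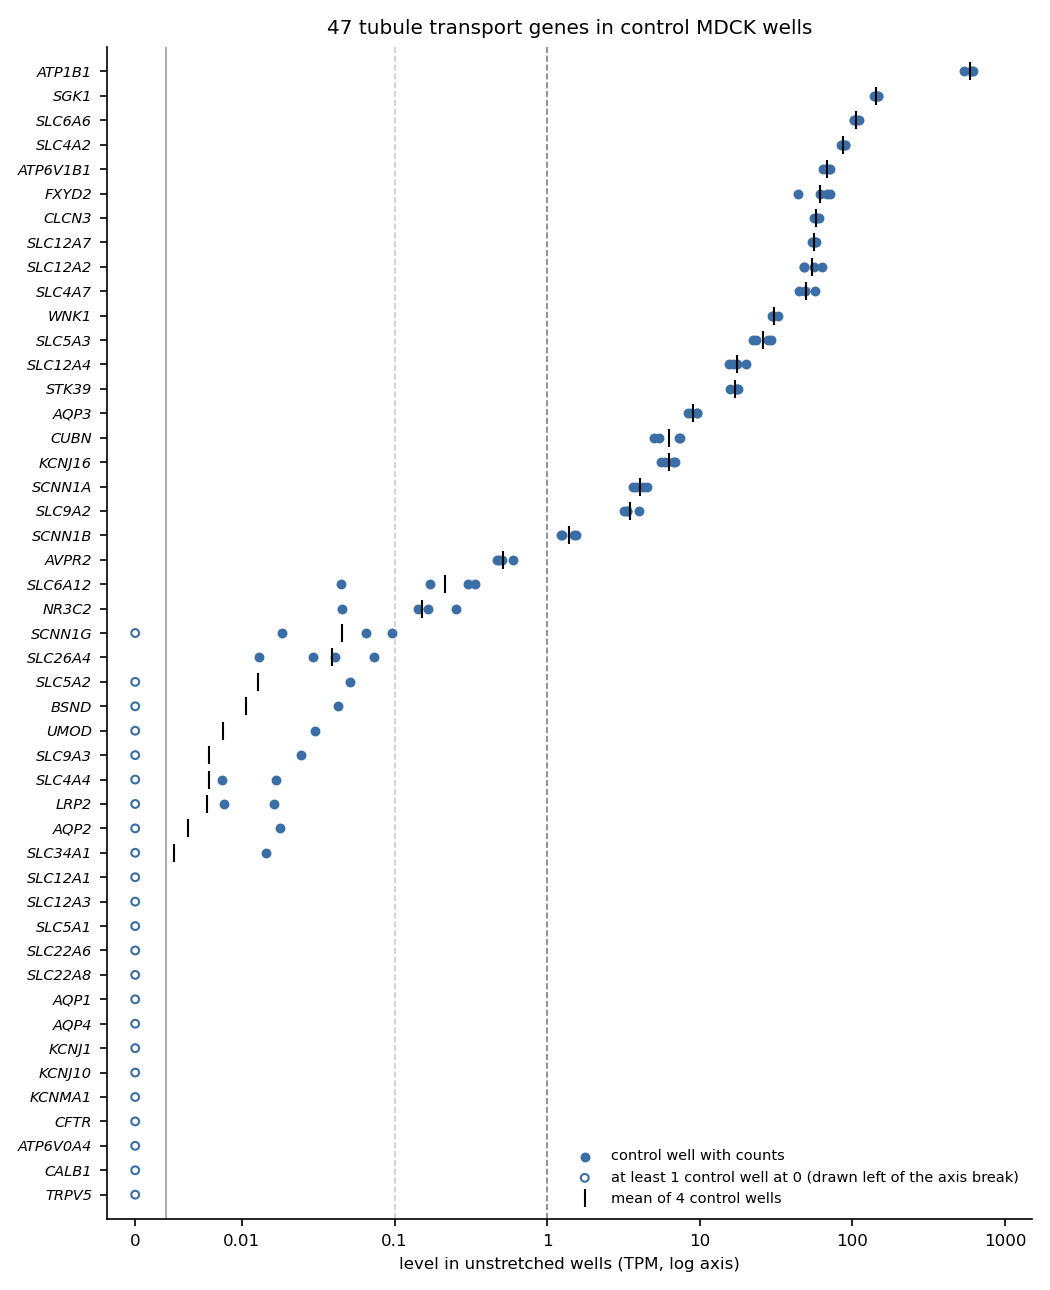
Level of each of the 47 tubule transport genes in the 4 control wells (TPM, log axis), with filled points for wells with counts, open points at 0 for genes with at least 1 control well without a count, and a bar at the mean. The dashed lines mark 0.1 and 1 TPM; 20 genes lie at 1 TPM or above and 24 below 0.1 TPM.

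The sodium pump beta subunit was the most abundant transcript of the set. ATP1B1, which brings the pump to the basolateral membrane, read 609, 612, 538 and 599.8 TPM in control replicates 1 to 4. Its mean of 589.7 ± 34.9 TPM was above that of 99.2% of all genes in the table and made up 42.3% of the summed TPM of the 47 genes. Control replicate 3 was the lowest of the 4 wells. FXYD2, the small gamma subunit that tunes the pump's affinity, read 71.1, 61.2, 44.0 and 67.8 TPM, the widest relative spread of the 10 most abundant genes, with replicate 3 again the lowest.

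Among the cation-chloride cotransporters, the basolateral and housekeeping members were present and the kidney-specific apical members had 0 counts in the control wells. SLC12A2 encodes the sodium-potassium-chloride importer NKCC1, and SLC12A7 and SLC12A4 encode the potassium-chloride exporters KCC4 and KCC1. SLC12A7 was at 56.4 ± 1.25 TPM and SLC12A2 at 54.1 ± 7.25 TPM, and their control ranges overlapped. SLC12A4 was lower at 17.4 ± 1.90 TPM, with SLC12A7 exceeding it 3.27 ± 0.405 times. SLC12A1, the apical cotransporter of the thick ascending limb, had 0 counts in all 8 wells, and SLC12A3, the thiazide-sensitive cotransporter of the distal convoluted tubule, had 0 counts in control wells and 1 count in each of 2 stretch wells. The kinases upstream of these carriers were both present, WNK1 at 30.7 ± 1.34 TPM and STK39 (SPAK), which phosphorylates the cotransporters, at 17.0 ± 0.908 TPM.

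Carriers of organic osmolytes, which cells accumulate to hold their volume, differed widely in level. SLC6A6, the taurine carrier, was the third most abundant of the 47 genes at 105 ± 4.12 TPM. SLC5A3, the myo-inositol carrier, was at 25.8 ± 3.42 TPM, so that SLC6A6 exceeded it 4.15 ± 0.546 times. The betaine carrier SLC6A12 had between 2 and 15 counts per well and a mean of 0.214 ± 0.134 TPM.

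Acid-base transport was carried by broadly expressed exchangers and 1 tubule-restricted pump subunit. SLC4A2, the basolateral chloride-bicarbonate exchanger AE2, was at 87.1 ± 2.43 TPM, and the sodium-bicarbonate cotransporter SLC4A7 at 49.8 ± 5.21 TPM. SLC9A2, a sodium-proton exchanger, was at 3.48 ± 0.368 TPM, whereas SLC9A3, the apical exchanger of the proximal tubule, had 1 count in each of 2 wells. SLC4A4, the proximal basolateral bicarbonate carrier, had at most 2 counts in a well. ATP6V1B1, the B1 subunit of the vacuolar proton pump that is typical of intercalated cells, read 64.0, 67.4, 70.4 and 70.8 TPM. Its broadly expressed counterpart ATP6V1B2 was at 103 ± 4.44 TPM, giving a B1 to B2 ratio of 0.66 ± 0.047 in control and 0.68 ± 0.036 in stretch wells. The a4 subunit that accompanies B1 in intercalated cells, ATP6V0A4, had 0 counts in all wells, while ATP6V0A1 and ATP6V0A2 were at 45.5 ± 2.82 and 29.3 ± 3.97 TPM. SLC26A4 (pendrin), the apical chloride-bicarbonate exchanger of intercalated cells, had between 1 and 6 counts per well. SLC4A7, SLC9A2 and SLC26A4 each overlap exons of a gene on the opposite strand, and how strand was used in counting is not stated, so part of their reads may belong to that partner.

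The epithelial sodium channel was represented unevenly. Its alpha subunit SCNN1A was at 4.05 ± 0.389 TPM and its beta subunit SCNN1B at 1.38 ± 0.161 TPM, a ratio of 2.98 ± 0.534. The gamma subunit SCNN1G, needed for full channel activity, had 3, 5, 0 and 1 counts in control replicates 1 to 4 and 0, 0, 1 and 0 in stretch replicates 1 to 4. SCNN1B and NR3C2 each overlap exons of 1 gene on the opposite strand. NR3C2, the mineralocorticoid receptor that controls the channel's transcription, was at 0.151 ± 0.0852 TPM, with 3 to 19 counts per well, while the glucocorticoid receptor NR3C1, which was not among the 47, was at 20.4 ± 1.17 TPM. SGK1, the kinase that steroid receptors induce and that holds the channel at the membrane, read 147, 146, 141 and 138 TPM and was the second most abundant of the 47 genes. Its mean of 143 ± 4.23 TPM lay above that of 96.7% of all genes in the table, those with 0 counts in every well included.

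Of the water channels, AQP3, which lies in the basolateral membrane of principal cells, was at 9.07 ± 0.597 TPM. AQP2, the vasopressin-regulated apical channel, had 1 count in 1 well, AQP1, the channel of proximal tubule and thin limb, 1 count in 1 stretch well, and AQP4 0 counts. AVPR2, the vasopressin receptor that sends AQP2 to the membrane, was at 0.514 ± 0.0581 TPM, with 10 to 15 counts per control well.

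Of the potassium and chloride channel genes among the 47, those above 1 TPM were CLCN3, an intracellular chloride-proton exchanger found in most cells, at 58.1 ± 1.75 TPM, and KCNJ16 (Kir5.1) at 6.25 ± 0.610 TPM. KCNJ10 (Kir4.1), the usual partner of Kir5.1 in the distal nephron, had 0 counts in all wells, as did KCNJ1 (ROMK), the apical potassium channel. KCNMA1 (the large-conductance potassium channel) and CFTR each had 1 count in 1 well, and BSND, the chloride channel subunit barttin, had 5 counts over 8 wells.

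Of the proximal tubule carriers and receptors among the 47, CUBN alone reached 1 TPM. CUBN (cubilin), an endocytic receptor for filtered protein, was at 6.28 ± 1.25 TPM, while its partner LRP2 (megalin) had 4 and 2 counts in 2 control wells and 0 elsewhere. CUBN overlaps exons of 2 genes on the opposite strand. The glucose carriers SLC5A1 and SLC5A2 had 0 and 4 counts over all wells, the phosphate carrier SLC34A1 had 2, and the organic anion carriers SLC22A6 and SLC22A8 had 0. Of the remaining distal markers, UMOD (uromodulin) had 1 count, and the calcium-handling genes TRPV5 and CALB1 had 0.

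Ordered by level, the 20 genes at 1 TPM or more gave 19 neighbouring pairs, of which 8 had overlapping control ranges. The overlaps joined ATP6V1B1, FXYD2, CLCN3, SLC12A7, SLC12A2 and SLC4A7 into a run whose order is not settled by 4 wells. They also linked SLC12A4 with STK39, CUBN with KCNJ16, and SCNN1A with SLC9A2. The positions of ATP1B1, SGK1, SLC6A6 and SLC4A2 at the top did not overlap between neighbours.

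No segment of the nephron was represented by its complete marker list. Of 13 proximal tubule markers, 2 reached 1 TPM (CUBN and HNF4A) and 10 were below 0.1 TPM. Of 9 thick ascending limb markers found, CLDN16 (46.2 ± 6.71 TPM) and IRX1 reached 1 TPM, and UMOD, SLC12A1, KCNJ1, CLDN19, BSND and CASR were below 0.1 TPM. Among 10 distal convoluted tubule markers, 4 reached 1 TPM (TRPM6, KLHL3, WNK4 and KCNJ16) and 6 were below 0.1 TPM, SLC12A3 included. The principal cell list had 4 of 12 at 1 TPM or more (AQP3, SCNN1A, SCNN1B and GATA3, the last at 28.6 ± 3.07 TPM) and 4 below 0.1 TPM, AQP2 included. Of 12 intercalated cell markers, ATP6V1B1 alone reached 1 TPM, and the other 11, among them FOXI1 at 0 counts, were below 0.1 TPM. The thin limb list had 3 of 6, CLDN4, AKR1B1 and BST1, which are not restricted to that segment. Between the groups, the range of the summed level of each of these 6 lists over the stretch wells overlapped its range over the control wells.

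**Figure D2:**
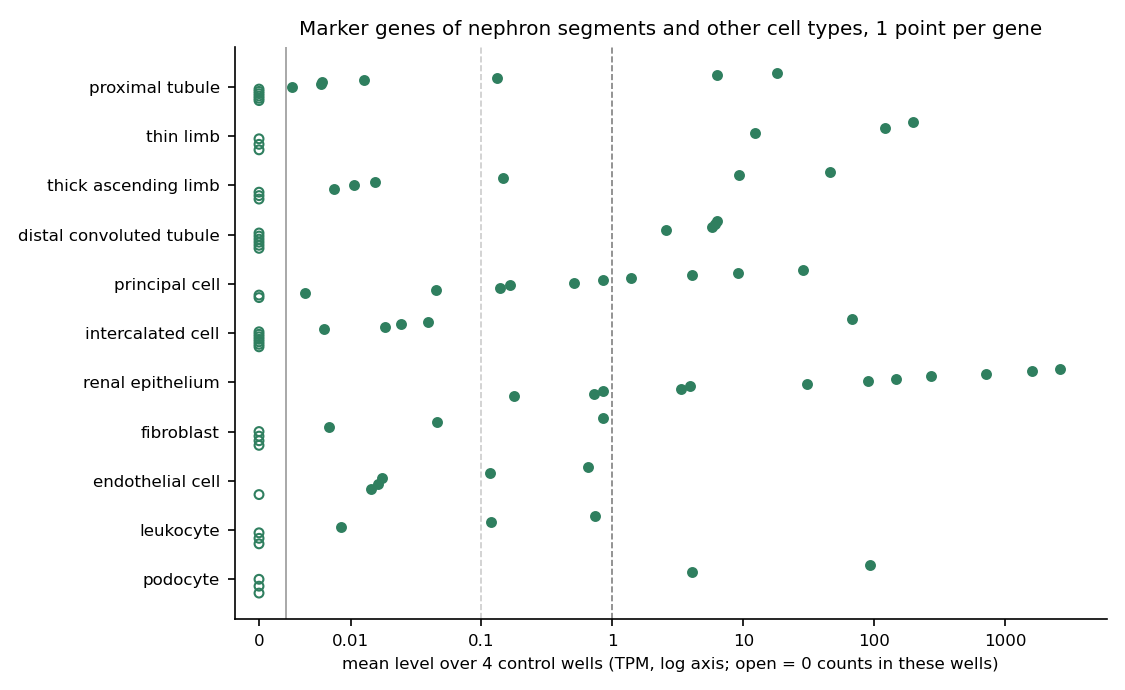
Mean level over the 4 control wells (TPM, log axis) of the marker genes of 6 nephron segments or cells, of renal epithelium, and of 4 other cell types, with 1 point per gene and open points for genes at 0 counts in these wells. Renal epithelial markers reach 2622 TPM, while the intercalated cell list has a single gene, ATP6V1B1, above 1 TPM.

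After strain for 2 hours, the 20 transport genes at 1 TPM or more had log2 changes between -0.13 and 0.26 without a term for replicate number. Of the 47 genes, 22 had enough counts to be tested and 25 did not, so the counts below say nothing about the 25. Without a term for replicate number, 0 of the 22 passed an adjusted p of 0.05 in edgeR's quasi-likelihood test with Benjamini-Hochberg adjustment over all 14571 tested genes, against 0.0% of all tested genes. At an unadjusted p under 0.05 there were 2 of the 22, SLC12A4 and SGK1, against 3.97% of all genes. The Wald test of DESeq2 also called 0 at the adjusted threshold, against 0.275% of the 14571 genes. It gave no adjusted p for AVPR2 and SLC6A12, so neither could be called. Wells of equal replicate number varied together across genes, as did some wells of unequal number within replicates 1 and 2 and within replicates 3 and 4, and the labels tie no number to a shared device or batch. Once replicate number entered the model as a block (the blocked fit) 1 of the 22 passed in edgeR's test, SLC12A4, against 0.7% of all tested genes. SLC12A4 and SGK1 were again the 2 genes with an unadjusted p under 0.05 in that fit, where 8.89% of all genes had one. These shares rest on 1 or 2 genes.

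Among the 20 genes at 1 TPM or more, 19 had log2 changes without the block that lay within 0.15 of 0. Their standard errors ran from 0.041 to 0.20 without the block and from 0.035 to 0.20 with it. Of the 22 tested genes 17 were higher and 5 lower, with a median log2 change of 0.022, while 7018 of all tested genes were higher and 7553 lower, with a median of -0.0032. The 20 genes took from 0.231% to 0.251% of the counts in every well.

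**Figure D3:**
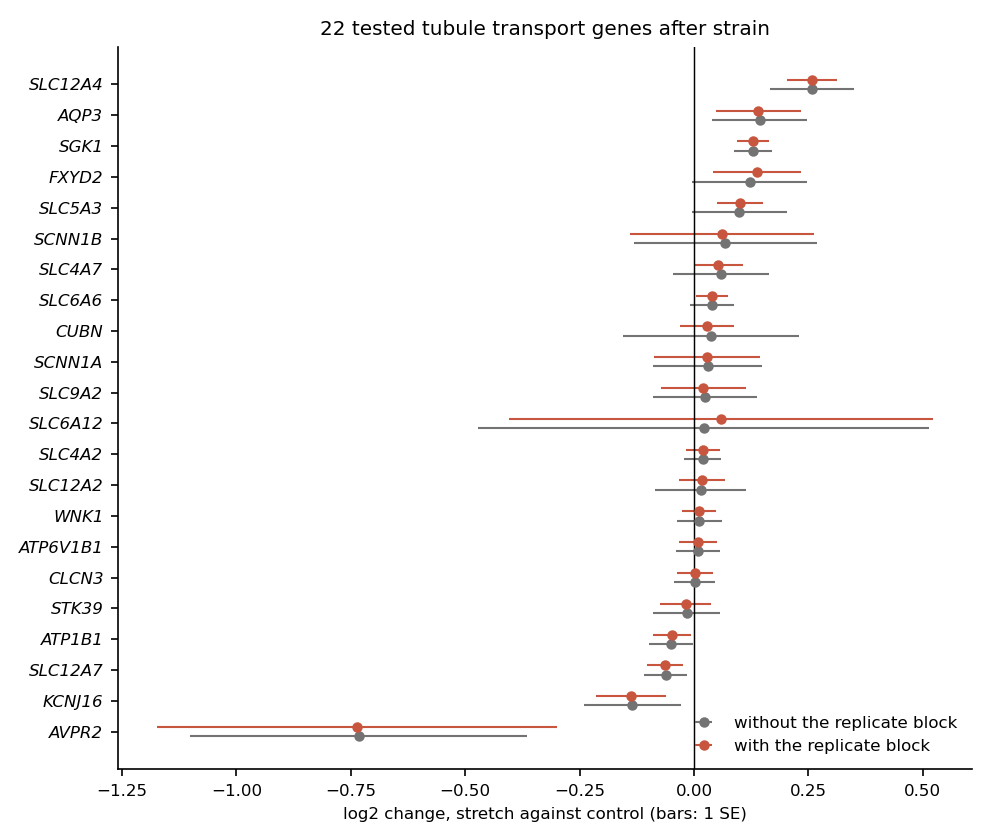
Log2 change of stretch against control wells for the 22 tested genes (points) with 1 standard error (bars), without the replicate block in grey and with it in red. SLC12A4 at 0.26 is the highest and AVPR2 at -0.73 the lowest, and AVPR2 and SLC6A12 have the widest bars.

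SLC12A4, the potassium-chloride exporter KCC1 on chromosome 5 (82119391 to 82141353), was the single transport gene that rose past the threshold, and only with the block. Its normalised counts, in CPM scaled with TMM factors, were 28.9, 26.99, 34.7 and 30.6 in control replicates 1 to 4 and 33.4, 34.7, 41.9 and 34.9 in stretch replicates 1 to 4. Each stretch well was above the control well of its number, an order shown by 8.45% of all tested genes. The groups overlapped, with control replicate 3 above stretch replicate 1. The blocked fit gave a log2 change of 0.26 ± 0.056 (SE; edgeR, adjusted p = 0.0386), and the fit without the block 0.26 ± 0.092 (edgeR, adjusted p = 0.999). The call was lost when any 1 pair was left out of the fit with the block, with adjusted p from 0.0502 without replicate 3 to 0.208 without replicate 2 (edgeR), and with a block of 2 levels that joins replicates 1 and 2 and replicates 3 and 4 (adjusted p = 0.0911). Over all the fits run, single wells left out included, its log2 change stayed between 0.18 and 0.33.

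The other cation-chloride genes did not pass. SLC12A7 had 143, 143, 136 and 143 CPM in control wells and 142, 137, 129 and 132 CPM in stretch wells, lower in 4 of 4 pairs, an order shown by 7.84% of all tested genes, with a log2 change of -0.062 ± 0.039 in the blocked fit (edgeR, adjusted p = 0.753). SLC12A2 had 165, 163, 215 and 191 CPM in control and 161, 182, 191 and 208 CPM in stretch wells, with overlapping groups and a log2 change of 0.017 ± 0.050 in the blocked fit (edgeR, adjusted p = 0.97). The ratio of SLC12A7 to SLC12A4 in TPM was 3.27 ± 0.405 in control and 2.62 ± 0.349 in stretch wells, a difference that was not tested. WNK1 and STK39 had log2 changes of 0.012 and -0.016 without the block. Over a wider list of 19 cotransporters and WNK-pathway genes, 14 were tested, and SLC12A4 was the 1 that passed with the block.

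SGK1 on chromosome 1 (27318579 to 27428323) had 246, 243, 234 and 231 CPM in control replicates 1 to 4 and 264, 267, 253 and 259 CPM in stretch replicates 1 to 4. Every stretch well was above every control well, which held for 1.3% of all tested genes. It differed by 0.13 ± 0.035 on the log2 scale in the blocked fit and 0.13 ± 0.041 without the block, and passed in neither (edgeR, adjusted p = 0.124 and 0.964). Of the 17 genes on a list of sodium channel and mineralocorticoid control, 13 were tested and 0 passed with or without the block. The smallest p among those outside the 47 were those of PER1, a clock gene that glucocorticoids and aldosterone induce, at 0.23 ± 0.060, and TSC22D3, another steroid-induced gene, at -0.18 ± 0.071 on the log2 scale in the blocked fit (edgeR, adjusted p = 0.099 and 0.403). SGK1 and PER1 were thus higher and TSC22D3 lower, and none of the 3 passed. SCNN1A ran from 7.37 to 9.11 CPM in control wells and from 7.24 to 9.67 CPM in stretch wells, and SCNN1B from 1.62 to 2.02 and from 1.61 to 2.42 CPM.

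AVPR2, the vasopressin receptor, had the lowest log2 change of the set on very few reads. It had 10, 12, 11 and 15 counts in control replicates 1 to 4 and 5, 8, 9 and 6 counts in stretch replicates 1 to 4. All stretch wells were below all control wells in CPM, which held for 1.24% of all tested genes. On the log2 scale the difference was -0.74 ± 0.44 in the blocked fit and -0.73 ± 0.37 without the block (edgeR, adjusted p = 0.725 and 0.999). AQP3 had 10.7, 9.77, 10.7 and 9.39 CPM in control and 11.6, 9.49, 11.97 and 11.7 CPM in stretch wells, higher in 3 of 4 pairs, with a log2 change of 0.14 ± 0.093 in the blocked fit (edgeR, adjusted p = 0.772). Of 21 aquaporin and vasopressin-pathway genes 13 were tested and 0 passed in either fit. ADCY6, the adenylyl cyclase of the vasopressin pathway, had a log2 change of -0.057 ± 0.049 and PDE4D, a phosphodiesterase that degrades cyclic AMP, of 0.11 ± 0.099 with the block.

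SLC5A3, the myo-inositol carrier, had 33.6, 43.9, 41.5 and 35.1 CPM in control and 37.7, 46.8, 44.5 and 36.3 CPM in stretch wells. It was higher in 4 of 4 pairs, an order shown by 8.45% of all tested genes, while the groups overlapped widely. The log2 change was 0.10 ± 0.051 in the blocked fit (edgeR, adjusted p = 0.624). SLC6A6 spanned 352 to 383 CPM in control and 348 to 395 CPM in stretch wells, and SLC6A12 had a log2 change of 0.021 ± 0.49 without the block, an error too wide to place it. Of 13 genes of osmolyte transport and the tonicity response 12 were tested and 0 passed in either fit. TSC22D2, a tonicity-induced gene, and LRRC8B, a subunit of the volume-regulated anion channel, had the smallest p outside the 47, at 0.13 ± 0.058 and -0.11 ± 0.047 on the log2 scale in the blocked fit (edgeR, adjusted p = 0.517 for each).

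None of the sodium pump and acid-base genes passed. ATP1B1 had 439, 438, 385 and 433 CPM in control and 409, 399, 422 and 406 CPM in stretch wells, a log2 change of -0.048 ± 0.042 in the blocked fit (edgeR, adjusted p = 0.855). Control replicate 3 was below all the stretch wells and the other 3 control wells were above all of them. Without that well the log2 change was -0.093, and the blocked fit without replicate 3 gave -0.11 (edgeR, adjusted p = 0.903 and 0.128). The blocked fits without replicate 1, 2 and 4 gave -0.031, -0.017 and -0.033. FXYD2 had 19.5, 16.6, 11.95 and 18.6 CPM in control and 17.9, 18.6, 17.7 and 18.3 CPM in stretch wells, with a log2 change of 0.14 ± 0.097 in the blocked fit (edgeR, adjusted p = 0.79). Without control replicate 3, its lowest well, the unblocked change was -0.0068, and the blocked fit without replicate 3 gave 0.0052. Without the block, SLC4A2, SLC4A7, SLC9A2 and ATP6V1B1 had log2 changes of 0.019, 0.059, 0.023 and 0.0079. Leaving out stretch replicate 1 moved that of SLC4A7 to 0.16, and leaving out stretch replicate 4 moved it to 0.0033. On the lists, 0 of 7 tested sodium pump genes, 0 of 10 acid-base genes and 0 of 18 proton pump subunits passed in either fit, and none of these had an unadjusted p under 0.05.

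Among the channels, KCNJ16 had 16.6, 17.4, 19.6 and 20.5 CPM in control and 17.1, 13.8, 17.7 and 18.8 CPM in stretch wells, lower in 3 of 4 pairs, with a log2 change of -0.14 ± 0.077 in the blocked fit (edgeR, adjusted p = 0.685). Without stretch replicate 2, the lowest well, the unblocked change was -0.048, and the blocked fit without replicate 2 gave -0.073. CLCN3 was at 116 ± 3.24 CPM in control and 116 ± 2.83 CPM in stretch wells. Of 14 tested potassium and chloride channel genes 0 passed, and the smallest p outside the 47 was that of KCNK5, an acid-sensitive potassium channel of the tubule, at -0.16 ± 0.063 in the blocked fit (edgeR, adjusted p = 0.405). CUBN had 29.8, 31.7, 43.5 and 43.4 CPM in control and 28.3, 33.8, 49.6 and 40.6 CPM in stretch wells, a log2 change of 0.029 ± 0.059 in the blocked fit (edgeR, adjusted p = 0.951). Its wells differed by replicate number and not by group, with replicates 1 and 2 at 28.3 to 33.8 CPM and replicates 3 and 4 at 40.6 to 49.6 CPM. SLC12A2, KCNJ16 and WNK1 also separated these replicates without overlap, so that 4 of the 20 genes did, against 21.9% of tested genes at 1 TPM or more. Of 5 tested endocytic receptor genes and 5 tested organic ion, glucose and phosphate carriers 0 passed in either fit.

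**Figure D4:**
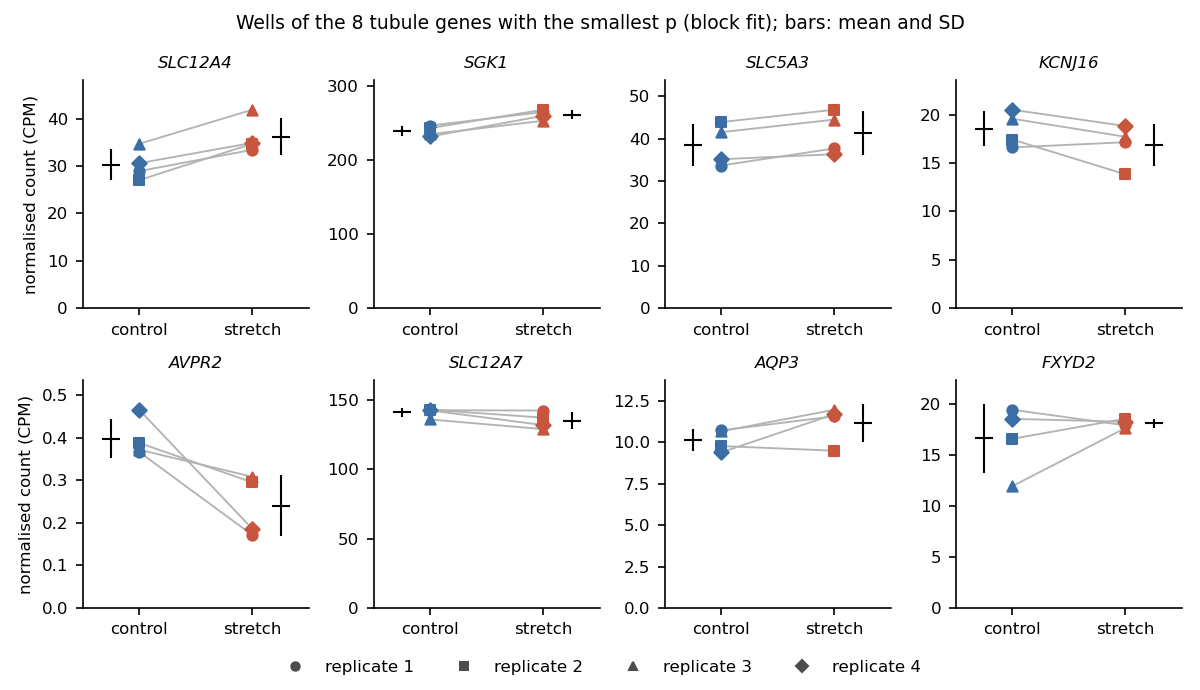
Normalised counts (CPM, axes from 0) in each control (blue) and stretch (red) well for the 8 transport genes with the smallest p in the fit with the block, with lines joining wells of equal replicate number and bars for mean and SD of 4 wells. SLC12A4, SGK1 and SLC5A3 are higher in 4 of 4 pairs, as are 8.45% of all tested genes. SLC12A7 and AVPR2 are lower in 4 of 4, as are 7.84%. Among these 8 genes, only SGK1 (higher, 1.3% of all tested genes) and AVPR2 (lower, 1.24%) have groups that do not overlap.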

How the data were processed

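The authors deposited unnormalised exon counts for each gene, made with featureCounts from polyA-selected, strand-specific TruSeq libraries, per the labels and the submitters' processing notes, which also name FastQC 0.11.8, Trim Galore 0.6.5, STAR 2.7.3a and Subread. The build, the strand setting and the treatment of reads mapping to several genes are not given in the sources used here; start and end of all 47 genes were identical to the RefSeq table of the dog assembly UU_Cfam_GSD_1.0. The deposited gene length (exon bases) gave TPM.

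Counts were tested with edgeR 4.0.16 in R 4.3.3 (glmQLFit, robust, and glmQLFTest; TMM factors; filterByExpr with a minimum count of 10 and total of 15, leaving 14571 genes; two-sided, Benjamini-Hochberg, threshold 0.05), tested first on simulated data. Deviations from the group means correlated between same-numbered wells, as given by the sample titles, with r from 0.108 to 0.328 across genes, each over 0.1. Wells of unequal number within replicates 1 and 2 and within replicates 3 and 4 also correlated (r up to 0.243), in some cases above the equal-numbered pair, and the labels tie no number to a device or batch. By the rule used (every equal-numbered r over 0.1) the fit with the replicate block stands beside the main one where a call differs. Alternatives used DESeq2 1.42.0, limma 3.58.1 (voom), other scaling and filters, and left-out wells; block fits with these were added after seeing the data. The 47 genes and the 10 lists of tubule function were chosen with earlier results of these data known. Genes were named in full by p, by level or as segment markers; the rest by counts. No list was tested as a set. Figures used matplotlib 3.10.9.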

Additional observations from a re-analysis of the deposited data

Results flagged for a closer look

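Single wells of 4 of the 22 tested genes lay far from the other 3 wells of their group, by the ratio of the gap to the range. For ATP1B1, control replicate 3 had 385 CPM against 433 to 439 CPM. For SLC12A7, control replicate 3 had 136 CPM against 142.6 to 143.1 CPM. For SLC9A2, control replicate 3 had 16.9 CPM against 13.6 to 14.1 CPM. For AQP3, stretch replicate 2 had 9.49 CPM against 11.6 to 11.97 CPM. In the 44 groups of wells examined, about 2.2 such cases would arise by chance at 1 in 20. Of the 4 cases, 3 fell in control replicate 3. Leaving out that well moved the unblocked log2 change of ATP1B1 from -0.050 to -0.093, of SLC12A7 from -0.062 to -0.078 and of SLC9A2 from 0.023 to 0.099. Leaving out stretch replicate 2 moved that of AQP3 from 0.14 to 0.22. None of the 4 genes passed with the well in question left out.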

How the results depend on the processing

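The number of genes called over the whole table depended on the replicate block: 0 without it and 102 with it, 58 with the block of 2 levels, 51 within replicates 1 and 2, 25 within replicates 3 and 4, 40 with DESeq2 and 145 with DESeq2 and the block, and 11 without a filter on low counts. In blocked fits it was 105 with DESeq2 size factors, 111 with library size only, 448 without a filter and 97 with at least 10 counts in every well. Leaving out single wells gave 0 to 12, the latter without control replicate 3, and leaving out pairs from the blocked fit gave 43, 67, 186 and 74 for replicates 1 to 4. Of the transport genes, 0 passed without the block and 1, SLC12A4, passed with the replicate block, with DESeq2 and the block, and in the 4 blocked fits with other scaling or filters; 0 passed in each fit with a well or pair left out. Over all 10 lists, 0 passed without the replicate block and 1 with it. The block changed no other call among the transport genes. The number at 1 TPM or more was 20, and 19 to 21 under other scales and thresholds.

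Some genes changed sign between subsets. Within replicates 3 and 4, the log2 changes were 0.024 for ATP1B1, -0.020 for SLC4A2, -0.021 for ATP6V1B1, -0.0069 for CLCN3 and -0.017 for SLC12A2. Within replicates 1 and 2 they were -0.016 for WNK1, -0.21 for SCNN1A, -0.070 for SLC9A2, -0.14 for SCNN1B and -0.25 for SLC6A12. With single wells left out, the ranges that crossed 0 were -0.017 to 0.030 for ATP6V1B1, -0.012 to 0.019 for CLCN3, -0.12 to 0.16 for CUBN, -0.0068 to 0.21 for FXYD2, -0.046 to 0.094 for SCNN1A, -0.074 to 0.14 for SCNN1B, -0.043 to 0.10 for SLC12A2, -0.31 to 0.30 for SLC6A12, -0.055 to 0.11 for SLC9A2, -0.058 to 0.029 for STK39 and -0.012 to 0.042 for WNK1. With pairs left out of the blocked fit they were -0.020 to 0.031 for ATP6V1B1, -0.010 to 0.011 for CLCN3, -0.029 to 0.075 for CUBN, -0.072 to 0.12 for SCNN1A (-0.028 without replicate 4), -0.014 to 0.17 for SCNN1B, -0.024 to 0.081 for SLC12A2, -0.0098 to 0.11 for SLC4A7, -0.30 to 0.13 for SLC6A12, -0.094 to 0.094 for SLC9A2, -0.058 to 0.016 for STK39 and -0.0090 to 0.023 for WNK1. SLC6A12 had too few counts for the blocked fits without replicate 1 and without replicate 4, so its range leaves those out. The cause of the changes of sign was not tested. Low counts limit AVPR2, SLC6A12 and the 25 genes that were not tested.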

Other observations

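Some transport-related genes outside the 47 were more abundant than most of them. CA2, the cytosolic carbonic anhydrase, was at 676 ± 82.1 TPM in the control wells (mean ± SD, n = 4), the phosphate carrier SLC20A1 at 465 ± 115 TPM and the glucose carrier SLC2A1 at 429 ± 72.3 TPM, while the tubule carriers of phosphate and glucose, SLC34A1 and SLC5A2, were below 0.1 TPM. SLC20A1 spanned 621 to 1070.4 CPM in control wells and 702 to 1038.5 CPM in stretch wells and was higher in 3 of 4 pairs, with a log2 change of 0.13 ± 0.043 with the replicate block (edgeR, adjusted p = 0.276).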
